A study of Mus musculus with 16 samples.

Results

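Versican (Vcan), big-h3 (Tgfbi), decorin (Dcn), lumican (Lum), biglycan (Bgn), periostin (Postn), Sparc, tenascin C (Tnc), fibronectin (Fn1) and osteopontin (Spp1) are 10 secreted proteins of the extracellular matrix, and their signals were described in lungs of T1α(-/-) and T1α(+/+) mice. A probe set was taken as a member when the annotation of the array gave it 1 symbol and that symbol was on the list. Of 12488 probe sets, 12 met this rule and measure 9 of the genes. Bgn, Tgfbi and Tnc have 2 probe sets each and the other genes have 1. No probe set was named for Spp1, which was not analyzed here. Part of the list was chosen by measured values, since Vcan and Tgfbi were selected on their E18.5 signals, which were lower in T1α(-/-) lungs. For this reason the genotype difference at E18.5 is given for all members as values and fold changes with no test, and so is every comparison of Vcan and Tgfbi that uses arrays of E18.5.

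The arrays were Affymetrix Murine Genome U74Av2, 1 for each of 16 lung samples. The groups were T1α(-/-) lungs at term (replicates F to H, n = 3), T1α(+/+) lungs at term (N to P, n = 3), T1α(-/-) fetal lungs at E18.5 (A to E, n = 5) and T1α(+/+) fetal lungs at E18.5 (I to M, n = 5). T1α (podoplanin, Pdpn) is a membrane protein of alveolar type I cells, and the (-/-) mice lack it in every cell from the start of development. All animals came from matings of heterozygous mice, and term pups were taken within minutes of delivery. The strain background is not given in the sources used here. Values are signals on a linear scale, scaled by the authors so that arrays can be compared, and the number of arrays limits their precision. A whole lung mixes all its cell types, so that fewer cells of a type and less RNA per cell cannot be told apart.

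Versican is a large chondroitin sulfate proteoglycan that binds hyaluronan and fills the loose matrix of developing organs. Decorin, lumican and biglycan are small leucine-rich proteoglycans that bind collagen fibrils, and decorin and biglycan also bind TGF-β. Big-h3 and periostin belong to 1 family of secreted fasciclin-domain proteins, and both genes are known to be induced by TGF-β. Sparc, tenascin C and osteopontin are matricellular proteins, which modulate how cells adhere to the matrix more than they build it, and fibronectin is the adhesive glycoprotein that integrins bind. In the lung most of these genes are expressed mainly in the mesenchyme, which thins as the alveolar sacs form before birth.

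The targeted gene checked the labels. The T1α signal was 8.6 to 30.0 on the (-/-) arrays and 39.7 to 214.9 on the (+/+) arrays at term, and 1.4 to 21.2 on the (-/-) arrays and 60.2 to 135.5 on the (+/+) arrays at E18.5. Array I, a (+/+) array of E18.5, stood apart with a median signal of 61.0 over all probe sets, against 35.8 to 47.6 on the other 15 arrays. The GAPDH 3′ to 5′ ratio, a sign of RNA quality, ran from 0.827 to 2.633 on (-/-) and from 0.853 to 2.553 on (+/+) arrays at term. At E18.5 it ran from 0.972 to 1.723 on (-/-) and from 0.962 to 1.594 on (+/+) arrays. Xist, a transcript of female cells, was above the Y-linked Eif2s3y on 1 of 3 (-/-) and 0 of 3 (+/+) arrays at term, and on 4 of 5 (-/-) and 3 of 5 (+/+) arrays at E18.5, so that sex may be unequal between groups. The summed signal of 8 heart muscle markers exceeded 5000 on 4 arrays (E, F, M and O, 1 in each group) and was at most 3335.6 on the rest. Markers of mesenchyme, the cells expected to make most of these proteins, were present in all groups, with 6 of 9 or 7 of 9 of them above the filter level.

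The bases before the start of transcription are shown for Tgfbi, whose difference put it on the list, and for Bgn, the gene with the only change over time past the test. Both windows hold 250 bases and come from RefSeq (GRCm38.p6), and in both genes the table's start is the first annotated base of the gene. Capitals mark matches, on either strand, to the motifs searched, which were the TATA box as TATAAA, the CCAAT box, the GC box as GGGCGG, the AP-1 site as TGACTCA, the SMAD-binding sequence as CAGACA and the TCF-binding sequence as CTTTGAA.
Tgfbi chr13:56609336-56609585 (+ strand): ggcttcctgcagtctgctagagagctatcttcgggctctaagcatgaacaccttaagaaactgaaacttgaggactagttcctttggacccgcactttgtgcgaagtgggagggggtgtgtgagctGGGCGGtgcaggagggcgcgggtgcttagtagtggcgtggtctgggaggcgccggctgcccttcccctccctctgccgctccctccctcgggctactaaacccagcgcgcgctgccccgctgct
Bgn chrX:73483351-73483600 (+ strand): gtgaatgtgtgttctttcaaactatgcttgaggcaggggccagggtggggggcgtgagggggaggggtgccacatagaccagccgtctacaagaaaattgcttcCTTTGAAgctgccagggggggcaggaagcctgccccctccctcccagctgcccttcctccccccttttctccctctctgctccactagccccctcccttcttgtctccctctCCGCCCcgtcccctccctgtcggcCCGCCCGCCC
The Tgfbi window had 1 match, a GGGCGG whose first base lies at -124 from the start. The Bgn window held CTTTGAA with its first base at -146 and 3 matches to GGGCGG on the opposite strand, at -34, -10 and -6, the last 2 of which overlap. GGGCGG was in 32.7% and CTTTGAA in 4.46% of the windows of the same length of all genes in the table. The G and C content was 62.4% for Tgfbi and 64.4% for Bgn, against a median of 52.4% over all windows. A match is a description of the letters and not a binding site.

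Versican was lower in (-/-) than in (+/+) fetal lungs, the difference that chose it. Its signals at E18.5 were 7.4, 31.1, 9.6, 20.1 and 53.1 on the (-/-) arrays (A to E), against 98.5, 151.4, 107.7, 65.4 and 59.7 on the (+/+) arrays (I to M). The highest (-/-) array lay below the lowest (+/+) array. The mean was 24.3 ± 18.7 in (-/-) lungs and 96.5 ± 37.0 in (+/+) lungs (SD, n = 5 each). All 5 (-/-) signals were under the filter level of 53.4 and none of the (+/+) signals was, so that Vcan passed the filter on low signals through its (+/+) group alone and the fold has only a bound. With each (-/-) array set to that level, the mean of log2 signals was at least 1.71-fold lower in (-/-) lungs. On the scale of log2(signal + 16), where 16 is a constant that damps noise at low signals, the difference was -1.54 (SE 0.32). It was -2.28 with no constant and -0.86 with a constant of 64. Groups without overlap and with lower (-/-) signals were found for 0.476% of the 5879 probe sets that passed the filter at E18.5, where 0.034% were called in this direction or in either by limma and 5.31% had an unadjusted p under 0.05. Nothing about the member genes is read from these shares, since the contrast chose them. The difference lay between -1.76 and -1.37 with each array left out in turn, and was -1.89 without the 4 arrays of high heart marker signal. These values use the constant of 16 and the signals that chose the gene, so that they describe the difference and lend it no support.

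At term the versican signals of the genotypes ran together, with 71.7, 40.6 and 17.6 in (-/-) lungs (F, G and H), against 45.0, 75.7 and 39.5 in (+/+) lungs (N, O and P). The median of neither genotype reached the filter level of 47.7, so that Vcan did not enter the fit, and the exact permutation test gave p = 0.5 (2-sided, where 3 arrays against 3 cannot go below 0.1). The filter takes the top part of all signals as measured and was passed when the median of at least 1 group exceeded it. The genotype difference on the log2 scale was 1.24 (SE 0.52) higher at term than at E18.5 in the fit of all groups. This is a description because it holds the contrast that chose the gene. Vcan passed the filter of that fit through its (+/+) group of E18.5 alone, since the medians of the other groups were under the level. The value was 0.71 with a constant of 64 and 1.81 with no constant. Its size therefore depends on how low signals are treated, and no change between the times is read from it. In (+/+) lungs the mean was 53.4 ± 19.5 at term and 96.5 ± 37.0 at E18.5, and in (-/-) lungs it was 43.3 ± 27.2 at term and 24.3 ± 18.7 at E18.5. Signals of term and E18.5 overlapped in both genotypes.

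Big-h3 was measured by the probe set 92877_at. At E18.5 its signals were 111.9, 91.2, 121.4, 169.4 and 144.2 in (-/-) lungs, against 158.4, 192.5, 191.2, 213.0 and 204.3 in (+/+) lungs. Only (-/-) array D reached the range of the (+/+) arrays, and there it exceeded array I alone. The mean was 128 ± 30.1 in (-/-) and 192 ± 20.8 in (+/+) lungs (SD, n = 5 each), a fold change of the means of -1.50 (the minus sign marks a lower mean in (-/-) lungs), with a log2 fold change of -0.55 (SE 0.19). At term the values were 65.3, 104.5 and 75.0 in (-/-) lungs and 62.8, 84.2 and 114.4 in (+/+) lungs. These ranges nearly coincide, and the log2 fold change was -0.07 (SE 0.26, adjusted p = 1 by limma with Benjamini-Hochberg over all probe sets, exact permutation p = 0.8). Its interval of -0.64 to 0.50 (95%) holds the value found at E18.5, and the difference between the times was 0.48 (SE 0.32) with no test.

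Tgfbi was lower at term than at E18.5 in both genotypes. In (+/+) lungs the mean was 87.1 ± 25.9 at term (n = 3) and 192 ± 20.8 at E18.5 (n = 5), a fold change of -2.20, where the minus sign marks a lower mean at term. The times did not overlap, which in this direction was so for 11.6% of the 6145 probe sets tested in (+/+) lungs. Among (-/-) lungs the mean was 81.6 ± 20.4 at term and 128 ± 30.1 at E18.5, a fold change of -1.56, where array G at term overlapped the fetal range. The log2 fold changes were -1.04 (SE 0.25) and -0.55 (SE 0.22) for (+/+) and (-/-) lungs. No test is given for either, since both comparisons share the E18.5 arrays that chose the gene. That choice can widen the fall in (+/+) lungs and narrow it in (-/-) lungs, so that the sizes of the falls are not compared. The second Tgfbi probe set, 161157_r_at, lay between 0.4 and 17.3 on all 16 arrays, under the filter level in every group, and gives no measurement to set beside 92877_at.

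**Figure D1:**
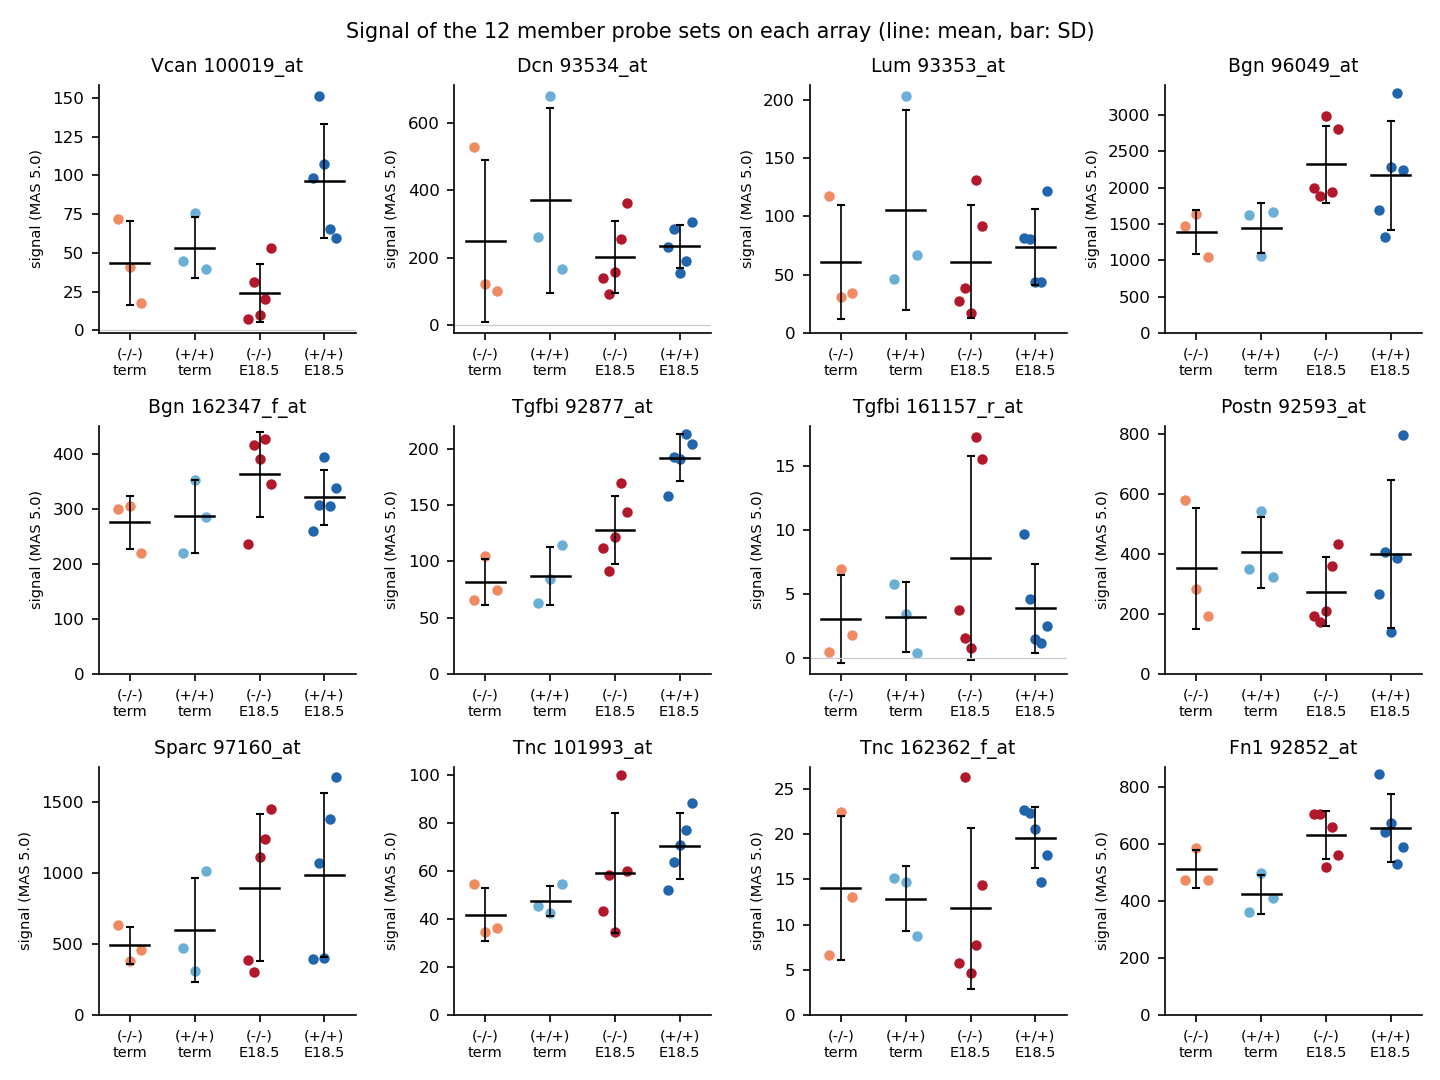
Signal (MAS 5.0, linear axis) of each of the 12 member probe sets in the 4 groups, with 1 point per array, a line at the mean and a bar for the SD (n = 3 per group at term and 5 at E18.5). Vcan is below the (+/+) range on all (-/-) arrays of E18.5 (7.4 to 53.1 against 59.7 to 151.4), and the Tgfbi set 92877_at is lower at term than at E18.5 in both genotypes.

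Decorin, lumican and periostin did not separate the genotypes at either time. At E18.5 decorin measured 140.2, 92.9, 159.2, 256.1 and 363.9 in (-/-) lungs, against 231.0, 287.0, 155.4, 189.5 and 306.0 in (+/+) lungs. Lumican measured 27.1, 39.0, 17.0, 131.0 and 91.6 in (-/-) lungs, against 81.7, 80.4, 43.3, 43.4 and 121.4 in (+/+) lungs. Periostin measured 194.8, 174.5, 211.2, 360.5 and 433.3 in (-/-) lungs, against 267.4, 407.8, 140.4, 388.0 and 795.1 in (+/+) lungs. In all 3 genes arrays A, B and C gave lower signals than D and E, and the (-/-) range overlapped the (+/+) range. The log2 fold changes were -0.29 (SE 0.30) for Dcn, -0.38 (SE 0.38) for Lum and -0.40 (SE 0.36) for Postn.

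At term decorin measured 529.0, 122.0 and 102.3 in (-/-) lungs, against 262.9, 681.3 and 167.1 in (+/+) lungs. Lumican measured 117.4, 30.8 and 34.3 in (-/-) lungs, against 46.0, 203.4 and 67.0 in (+/+) lungs, and periostin 578.5, 284.0 and 194.7 in (-/-) lungs, against 348.5, 542.4 and 324.7 in (+/+) lungs. A single array in each genotype, F among (-/-) and O among (+/+) lungs, was the highest for all 3 genes. The log2 fold changes were -0.67 (SE 0.61), -0.62 (SE 0.51) and -0.30 (SE 0.38) in the order decorin, lumican and periostin, all with adjusted p = 1 by limma. At both times Lum passed the filter between genotypes through its higher (+/+) group alone. Without array F the difference was -1.36 for Dcn, -1.10 for Lum and -0.71 for Postn, and without array O it was -0.13 for Dcn and -0.08 for Lum. Between term and E18.5 none of them passed the test in either genotype, with log2 fold changes of 0.06 to 0.44 and adjusted p of 0.422 or more where they were tested. Lum did not pass the filter for (-/-) lungs, where its mean was 60.8 ± 49.0 at term (n = 3) and 61.1 ± 48.5 at E18.5 (n = 5).

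The 3 genes followed each other from array to array. Pearson's r of log2 signals over the 16 arrays was 0.84 for decorin with lumican, 0.80 for decorin with periostin and 0.76 for lumican with periostin, and 0.82, 0.79 and 0.74 once each array was set against the mean of its group. These values are descriptions, since the arrays share genotype, time and scaling. Dcn and Lum are neighbors on chromosome 10, with 0 protein-coding genes between them in the RefSeq table for GRCm38.p6. Their spread within groups was large, with a pooled SD of the log2 signal of 0.79 for Dcn, 0.80 for Lum and 0.69 for Postn, against a median of 0.37 over 6458 probe sets. The SD was smaller in 98.1% of probe sets than in Dcn and Lum, and in 96.0% than in Postn.

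Some of the arrays on which they were highest also had high signal of heart muscle genes. All 3 genes had their group's top value on F, O and M and decorin and periostin on E, while lumican was higher on D (131.0, with a heart marker sum of 1337.6) than on E (91.6) and lowest on C (17.0), whose heart sum was 3335.6. The summed signal of the 8 heart markers, none of them below the filter level on every array, was 807.5 to 11425.4 in (-/-) and 1170.6 to 5754.6 in (+/+) lungs at term. At E18.5 it was 1163.6 to 7154.5 in (-/-) and 987.7 to 24204.1 in (+/+) lungs, with the top value on array M. Relative to the group means, r with the heart sum was 0.74 for Dcn, 0.59 for Lum and 0.77 for Postn, and with the sum of 6 smooth muscle markers it was 0.73, 0.70 and 0.65. Without arrays E, F, M and O the correlation of decorin with periostin was 0.72, that of decorin with lumican 0.66 and that of lumican with periostin 0.56. Among the remaining arrays at term, decorin had a log2 fold change of -0.82 (adjusted p = 1). Whether heart or smooth muscle RNA had a part in these levels was not tested.

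**Figure D2:**
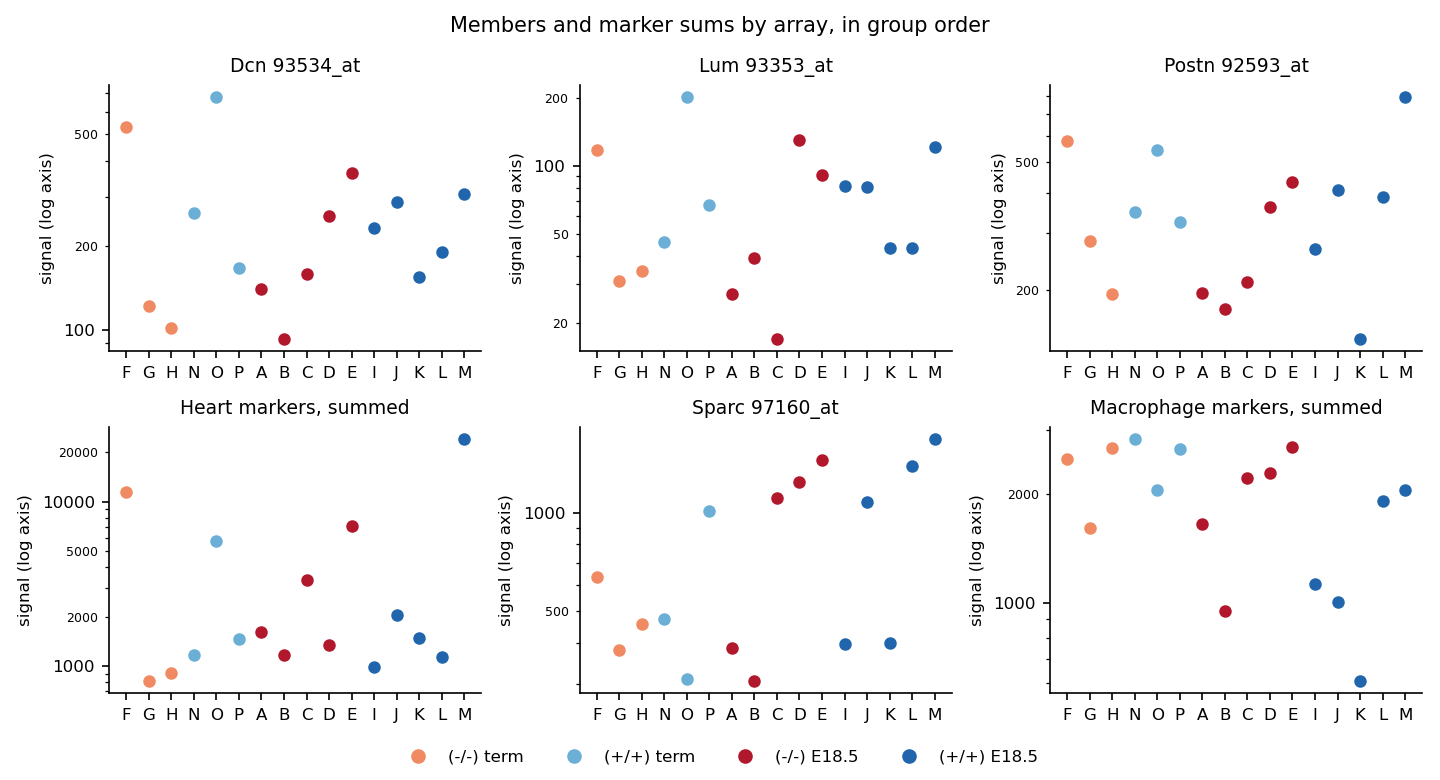
Signal (log axis) on each of the 16 arrays of Dcn, Lum, Postn and Sparc and of the summed heart and macrophage markers, with arrays in group order and colors for the groups. Arrays F and O at term and E and M at E18.5 carry the heart sums above 5000 and, in each group, the highest or second highest values of Dcn, Lum and Postn.

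Biglycan had the only change over time that passed the test among the members with a test. Its probe set 96049_at gave 1469.5, 1636.5 and 1050.0 in (-/-) lungs at term, against 1997.0, 1879.7, 2980.7, 1938.6 and 2807.6 in (-/-) lungs at E18.5. The groups did not overlap, and the mean of 1385 ± 302 at term (n = 3) set against 2321 ± 529 at E18.5 (n = 5) gave a fold change of -1.68. The log2 fold change was -0.73 (SE 0.24, adjusted p = 0.0391 by limma, 0.0357 by the exact permutation test, whose floor this is with 3 and 5 arrays). In the same comparison 26.7% of the 6193 probe sets tested passed, 13% in the downward direction, 40.4% had an unadjusted p under 0.05 and 14.7% had lower term signals with no overlap. The fall kept its direction under all 18 alternatives but passed under 8 of them, with adjusted p from 0.0125 to 0.154. It did not pass once arrays were quantile normalized (0.0538) or set to a common median (0.0888), with no filter (0.0779), with all arrays in 1 fit (0.0707), without the 4 arrays of high heart marker signal (0.152), or without array A (0.0507), C (0.088), E (0.0767), F (0.0883) or H (0.154).

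In (+/+) lungs this probe set gave 1619.6, 1055.3 and 1671.6 at term, against 1687.0, 1315.0, 2291.2, 3308.3 and 2245.8 at E18.5. These ranges overlapped, and the log2 fold change of -0.54 (SE 0.33) did not pass (adjusted p = 0.265 by limma). Its interval of -1.24 to 0.17 (95%) holds the value of (-/-) lungs, and the genotypes' changes over time were not shown to differ (adjusted p = 1 for the difference by limma). Between the genotypes 96049_at had log2 fold changes of -0.06 (SE 0.28) at term and 0.14 (SE 0.26) at E18.5, with overlap at both times. Bgn lies on the X chromosome, and the count of arrays with Xist above Eif2s3y differed between the groups as given above. The part of sex in its level was not tested. Over the 16 arrays the signal of 9 mesenchymal markers had r = 0.76 with Bgn and 0.59 relative to the group means, and its sum was 3885.1 to 5051.9 in (-/-) lungs at term and 5487.1 to 6379.4 at E18.5, also with no overlap. Sums of 10 epithelial and 4 erythroid markers had r = 0.69 and 0.71 with Bgn, and 0.33 for each relative to the group means. They too were lower at term with no overlap in (-/-) lungs, the epithelial sum with 16467.6 to 19151.6 at term and 25254.1 to 41802.4 at E18.5, and the erythroid sum with 6585.7 to 10859.9 at term and 16800.3 to 30239.3 at E18.5. With the mesenchymal sum, r over the arrays was -0.23 for Dcn, -0.31 for Lum and -0.33 for Postn. The part of these cell types in the level of Bgn was not tested.

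The second biglycan probe set, 162347_f_at, gave signals between 220.2 and 427.4. It had, in (-/-) lungs, 300.2, 305.0 and 220.2 at term, against 236.7, 415.6, 389.8, 427.4 and 344.5 at E18.5, and array A kept the ranges from separating. Its log2 fold change of -0.37 (SE 0.23) over time in (-/-) lungs and of -0.17 (SE 0.26) in (+/+) lungs did not pass (adjusted p = 0.252 and 0.672 by limma). The signals of the 2 probe sets had r = 0.39 (Spearman's rho 0.43) over the 16 arrays. The log2 ratio of 96049_at to 162347_f_at within an array was 2.26 ± 0.10 in (-/-) lungs at term and 2.63 ± 0.45 in (-/-) lungs at E18.5, and 2.27 ± 0.65 at term and 2.64 ± 0.48 at E18.5 in (+/+) lungs. None of the 3 comparisons of this ratio that were tested passed (exact permutation p = 0.357 in (-/-) and 0.393 in (+/+) lungs over time and 1 between genotypes at term, adjusted p = 0.589, 0.589 and 1). The suffix of 162347_f_at marks probes that can match several members of a sequence family, and a level cannot be compared between probe sets.

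**Figure D3:**
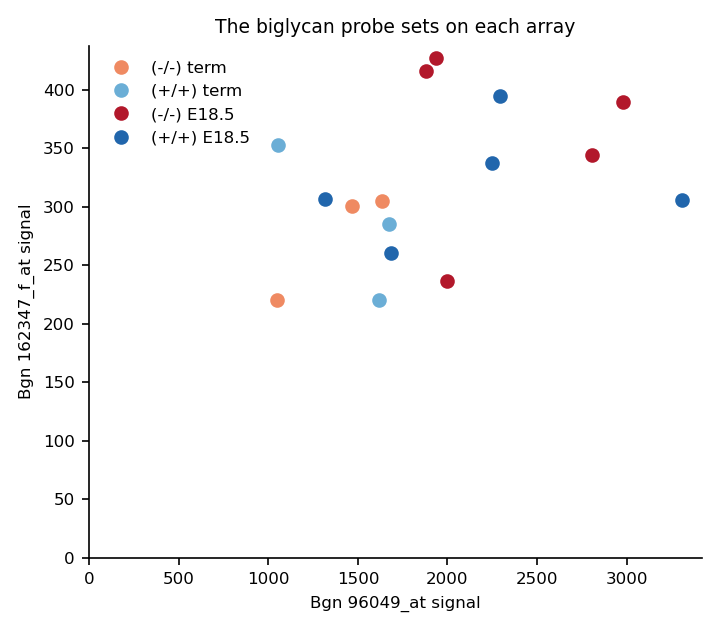
Signals (linear axes) of the biglycan probe sets 96049_at and 162347_f_at, with 1 point per array and colors for the 4 groups. Arrays of term lie to the left, between 1050.0 and 1671.6 on 96049_at, with array J of E18.5 (1315.0) among them, while on 162347_f_at the groups overlap between 220.2 and 427.4.

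Sparc, which binds collagen and calcium, had the widest spread of the members. At E18.5 it measured 387.0, 305.8, 1111.4, 1242.7 and 1450.9 in (-/-) lungs, against 397.2, 1075.8, 399.0, 1382.6 and 1680.7 in (+/+) lungs. Each genotype held a pair of arrays at 399.0 or less and 3 arrays at 1075.8 or more, with none between. At term it measured 634.2, 380.7 and 457.9 in (-/-) lungs, against 473.3, 310.2 and 1013.6 in (+/+) lungs, with 1 array, P, far above the other term arrays. The pooled SD within groups was 0.89 on the log2 scale, larger than that of 99.0% of probe sets. Differences between genotypes were -0.14 (SE 0.40) at term and -0.14 (SE 0.48) at E18.5. Over time the log2 fold changes of -0.63 (SE 0.46) in (-/-) and -0.63 (SE 0.48) in (+/+) lungs did not pass (adjusted p = 0.318 and 0.372 by limma). In (+/+) lungs it was -1.25 with array quality weights (adjusted p = 0.0288) and -0.01 without the 4 arrays of high heart marker signal. The summed signal of 8 macrophage markers, of which Adgre1 and Marco were below the filter level on every array, ran from 606.8 to 2846.4. Relative to the group means it had r = 0.81 with Sparc, the largest among the sums of cell type markers. The others included -0.65 for platelet, -0.59 for airway cartilage, 0.50 for smooth muscle, 0.43 for heart and -0.12 for mesenchymal markers. The part of these cell types in the level of Sparc was not tested.

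Tenascin C, an adhesion-modulating glycoprotein of growing tissue, was measured near the filter level. Its probe set 101993_at gave 54.4, 34.4 and 36.2 in (-/-) lungs and 45.5, 42.4 and 54.4 in (+/+) lungs at term. At E18.5 it gave 43.1, 58.2, 34.5, 99.9 and 59.7 in (-/-) lungs and 51.9, 63.7, 70.9, 76.9 and 88.2 in (+/+) lungs. Among (+/+) lungs only array P at term reached into the fetal range, above array I. Over time the log2 fold change was -0.34 (SE 0.27) in (-/-) and -0.43 (SE 0.25) in (+/+) lungs, and neither passed (adjusted p = 0.373 and 0.241 by limma, exact permutation p = 0.214 and 0.0714). In both genotypes Tnc entered these tests through its higher E18.5 group alone. The genotype difference at E18.5 was -0.25 (SE 0.24), and at term the gene was below the filter (exact permutation p = 0.5). The other Tnc probe set, 162362_f_at, lay between 4.7 and 26.3 on all arrays, below the filter in every comparison.

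Fibronectin varied least among the members, with a pooled SD within groups of 0.22 that was larger than that of only 4.6% of probe sets. In (+/+) lungs it measured 360.4, 497.8 and 411.0 at term, against 847.1, 640.3, 674.8, 528.5 and 588.6 at E18.5. The times did not overlap, which in the downward direction was so for 11.6% of the 6145 probe sets tested in (+/+) lungs. The mean was 423 ± 69.5 at term (n = 3) and 656 ± 120 at E18.5 (n = 5), a fold change of -1.55. With a log2 fold change of -0.61 (SE 0.26) it did not pass by limma (adjusted p = 0.114, exact permutation p = 0.0357, the floor of that test here), though it did with all 16 arrays in 1 fit (adjusted p = 0.0393). Of all probe sets in this comparison 18.6% passed, 7.99% in the downward direction. Fibronectin in (-/-) lungs measured 475.1, 587.5 and 473.4 at term, against 703.5, 705.9, 520.7, 658.0 and 562.1 at E18.5, with overlap and a log2 fold change of -0.29 (SE 0.20, adjusted p = 0.298). Between genotypes the log2 fold change was 0.27 (SE 0.25, adjusted p = 1) at term and -0.05 (SE 0.19) at E18.5. The highest signal, 847.1, was that of array I, and the sum of 8 airway cartilage markers was also highest there (642.8, against 206.4 to 496.9 on the other arrays). Of these markers Acan, Col11a1, Matn1 and Matn3 were below the filter level on every array. Without array I the log2 fold change over time in (+/+) lungs was -0.51 (adjusted p = 0.166). Over all arrays, with array I included, r of Fn1 relative to the group means was 0.81 with the cartilage sum. It was 0.67 with the sum of platelet markers and -0.64 with that of macrophage markers. The part of these cell types and of array I in the level of Fn1 was not tested.

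Counted together, 8 of the 12 member probe sets passed the filter at term, and 0 of them passed the test between genotypes by limma, 0 at an unadjusted p under 0.05 and 0 by the methods' t-test before adjustment. Over all 5885 probe sets at term 0% passed, with 0.68% at an unadjusted p under 0.05, and 1.94% were lower in (-/-) lungs with no overlap, which none of the members was. Signals were lower in (-/-) lungs for 7 of the 8, where 47.3% of all probe sets were lower, and the median log2 fold change of the members was -0.11, against 0.01 over all. Among the 7, Lum passed the filter through its higher (+/+) group alone (median 67.0, against 34.3 in (-/-) lungs), and Bgn counts with both of its probe sets. No lean of the members is therefore read from this count. At E18.5, where 10 member probe sets passed the filter and 44.5% of all probe sets were lower in (-/-) lungs, 8 of the 10 were lower. Nothing is read from this count, since this contrast chose part of the list. For the 8 probe sets of the other genes, the genotype difference changed between the times in 0 cases by limma (0 at an unadjusted p under 0.05). Of all 6458 probe sets 0% passed in this fit, 1.47% had an unadjusted p under 0.05 and 50.9% had a difference below 0, against 4 of the 10 member probe sets that passed the filter. Over time 1 of 7 member probe sets with a test passed in (-/-) lungs and 0 of 8 in (+/+) lungs, where 1 had an unadjusted p under 0.05. Of all probe sets 26.7% passed in (-/-) and 18.6% in (+/+) lungs, where 34.4% had an unadjusted p under 0.05.

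**Figure D4:**
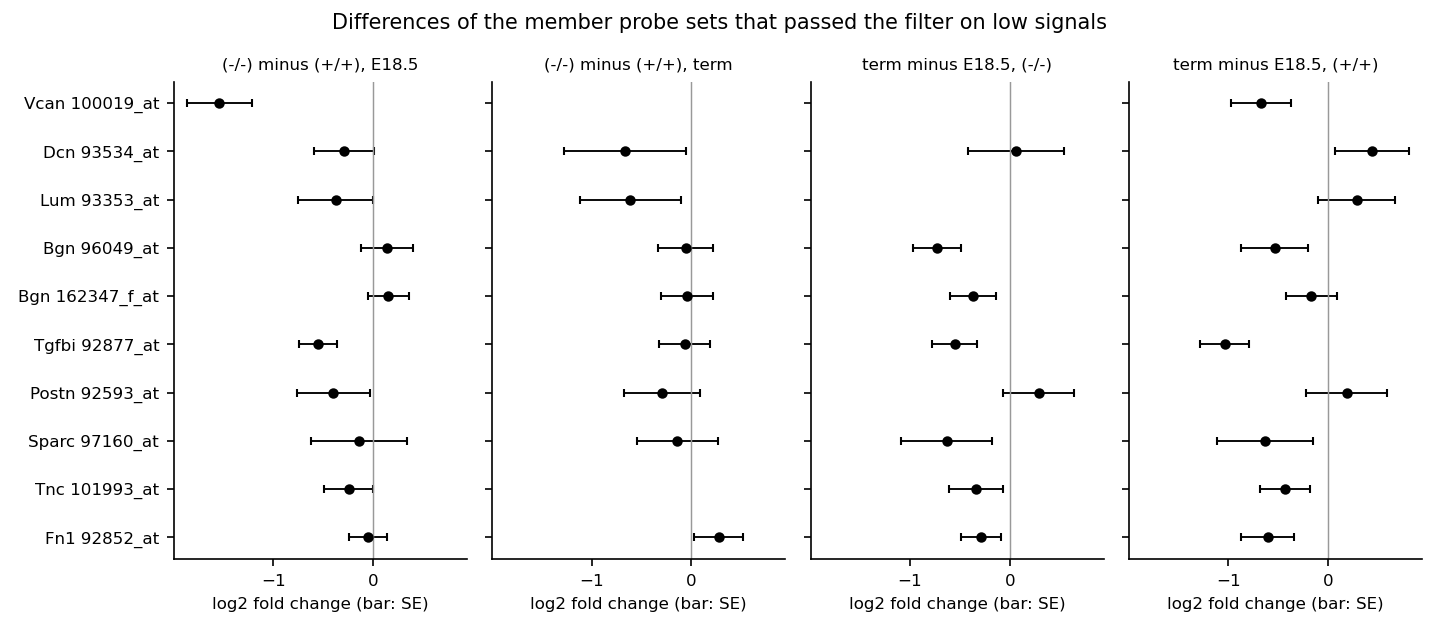
Log2 fold change (point) with its SE (bar) of the member probe sets that passed the filter, in 4 comparisons, which are (-/-) over (+/+) lungs at each time and term over E18.5 within each genotype. At E18.5 Vcan, whose (-/-) signals are all under the filter level, lies at -1.54, and at term all 8 probe sets lie within -0.67 and 0.27. Over time Tgfbi, Bgn, Sparc, Tnc and Fn1 lie below 0 and Dcn and Postn above 0 in both genotypes. Of all probe sets 53.7% in (-/-) and 52.7% in (+/+) lungs lie below 0. Vcan, below 0, and Lum, above 0, are shown over time in (+/+) lungs only. Nothing is read from these directions, since E18.5 signals chose Tgfbi and Vcan, and Tnc passed the filter through E18.5 alone.

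The genes around these proteins were taken as 7 lists, of other small leucine-rich proteoglycans, hyaluronan and its binding partners, heparan sulfate proteoglycans, other matricellular proteins, integrins and other receptors, the TGF-β pathway, and the synthesis and cleavage of chondroitin sulfate chains. Between genotypes 0 of 53 probe sets passed at term and 0 of 54 at E18.5 by limma, with 1 and 4 at an unadjusted p under 0.05 and 1 and 2 by the methods' t-test before adjustment. Over all probe sets 0% passed at term and 0.034% at E18.5 by limma, with 0.68% and 5.31% at an unadjusted p under 0.05. The median log2 fold change at E18.5 lay between -0.49 for the 3 small leucine-rich proteoglycans and 0.23 for the 3 chondroitin sulfate genes, against 0.04 over all probe sets. Fibromodulin (Fmod), a collagen-binding relative of lumican, had a mean of 114 ± 49.8 in the 5 (-/-) and 221 ± 192 in the 5 (+/+) fetal lungs, with a log2 fold change of -0.71 (adjusted p = 0.867). Ltbp3, which anchors latent TGF-β in the matrix, had a mean of 108 ± 19.3 in (-/-) and 64.6 ± 32.5 in (+/+) fetal lungs, with a log2 fold change of 0.71 (adjusted p = 0.858). At term the integrin-binding protein Ccn1 (Cyr61) had the largest difference in the lists, with 204 ± 51.1 in (-/-) and 561 ± 47.8 in (+/+) lungs (SD, n = 3 each) and a log2 fold change of -1.42 that did not pass (adjusted p = 0.856 by limma).

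Some genes of the TGF-β pathway rose between E18.5 and term in both genotypes. Of the 16 probe sets tested, 6 rose and 0 fell in (-/-) lungs and 5 rose and 0 fell in (+/+) lungs, where 13.8% and 10.6% of all probe sets rose. The median log2 fold change was 0.42 in (-/-) and 0.35 in (+/+) lungs, against -0.06 and -0.04 over all, and it stayed positive under each of the scaling alternatives. Smad4, the shared partner of the receptor-activated Smads, was 376 ± 17.1 at term and 108 ± 47.5 at E18.5 in (-/-) lungs (adjusted p = 0.00124 by limma), and 413 ± 167 at term and 109 ± 23.3 at E18.5 in (+/+) lungs (adjusted p = 0.00112). Tgfb1, the ligand, was 152 ± 74.1 at term and 38.1 ± 22.9 at E18.5 in (-/-) lungs (adjusted p = 0.00904), and 122 ± 72.3 at term and 19.0 ± 9.79 at E18.5 in (+/+) lungs (adjusted p = 0.00368). The E18.5 mean of Tgfb1 lay under the filter level in both genotypes, so that the sizes of its rises rest on low signals. In (+/+) lungs it entered the test through its term arrays alone. Smad7, an inhibitor of the pathway that its own signal induces, had log2 fold changes of 1.27 in (-/-) and 1.38 in (+/+) lungs (adjusted p = 0.00136 and 0.0089). Smad6, another inhibitor, rose by 0.69 on the log2 scale in (-/-) lungs (adjusted p = 0.0303), and Ski, a repressor of Smad-driven transcription, by 0.94 in (+/+) lungs (adjusted p = 0.0191). Both also passed in the other genotype, Smad6 with 1.30 in (+/+) and Ski with 0.60 in (-/-) lungs. The count of rises in (+/+) lungs was 1 without array N, 3 without O and 2 without the 4 arrays of high heart marker signal. In (-/-) lungs it was 3 without array C, F or G or without those 4, and 1 gene fell without G, without E, with quantile normalization or with array quality weights, as it did in (+/+) lungs with array quality weights. In the same comparisons Tgfbi and Postn, both known to be induced by TGF-β, lay on opposite sides of 0. Tgfbi, for which no test is given, had log2 fold changes below 0. Postn, which did not pass, had 0.29 in (-/-) and 0.185 in (+/+) lungs. The activity of the pathway was not tested. Marker sums also differed between the times. The sum of 8 endothelial markers, 1 of which (Eng) is on the TGF-β list too, was 3886.0 to 4222.0 at term and 2306.9 to 3574.3 at E18.5 in (-/-) lungs, with no overlap. In (+/+) lungs the endothelial sums overlapped, with 3138.3 to 3877.6 at term and 1904.4 to 3258.8 at E18.5. The macrophage sum was 2055.4 to 2846.4 at term and 606.8 to 2054.1 at E18.5 in (+/+) lungs, with a narrow gap and no overlap. In (-/-) lungs the macrophage sums overlapped, with 1610.0 to 2674.0 at term and 948.9 to 2695.2 at E18.5. The epithelial and erythroid sums of (+/+) lungs were lower at term with no overlap (14217.4 to 16714.7 at term and 20727.0 to 37047.0 at E18.5 for the epithelial sum), as in (-/-) lungs above. The part of these cell types in the changes of the lists was not tested.

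Other matricellular genes moved in both directions. Ccn1 rose to 204 ± 51.1 at term, against 23.0 ± 4.28 at E18.5, in (-/-) lungs (adjusted p = 8.9e-05 by limma) and to 561 ± 47.8, against 35.3 ± 10.5, in (+/+) lungs (adjusted p = 5.41e-07). Ccn2 (connective tissue growth factor) rose by 1.03 on the log2 scale in (-/-) and by 1.55 in (+/+) lungs (adjusted p = 0.0397 and 0.00255). Ccn3 rose by 0.95 in (+/+) lungs (adjusted p = 0.0258), and Smoc1, a calcium-binding relative of Sparc, fell by 1.03 there (adjusted p = 0.0291), with 18.7 ± 5.07 at term and 56.0 ± 17.2 at E18.5. The means of Ccn1 at E18.5 in both genotypes and of Smoc1 at term in (+/+) lungs lay under the filter level. Both genes thus entered these tests through their higher time alone, and the sizes of their changes rest on low signals. The elastic fiber protein fibulin 1 (Fbln1) fell by 0.87 in (-/-) lungs (adjusted p = 0.031). Ccn3, Smoc1 and Fbln1 did not pass in the other genotype. Their log2 fold changes there were 0.14 for Ccn3 and -0.93 for Smoc1 in (-/-) lungs and -0.81 for Fbln1 in (+/+) lungs. In all, 2 of 13 rose and 1 fell in (-/-) lungs, where 13.8% of all probe sets rose and 13% fell. In (+/+) lungs 3 of 14 rose and 1 fell, where 10.6% of all probe sets rose and 7.99% fell. The medians were -0.19 in (-/-) and -0.07 in (+/+) lungs. Without array L, N or O 2 rose and 0 fell in (+/+) lungs, and without E or G 1 rose and 0 fell in (-/-) lungs. The median in (+/+) lungs was 0.07 when each array was centered on its median, a scaling that moved the median of all probe sets over time to 0.10, against -0.04, and in (-/-) lungs to 0.04, against -0.06. The fall of 1 gene in each genotype was not called under that scaling.

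Among the receptors, the integrin subunits Itga7 and Itga3 fell in both genotypes. Itga7, the laminin-binding integrin of muscle, was 113 ± 29.6 at term and 262 ± 48.3 at E18.5 in (-/-) lungs (adjusted p = 0.00411 by limma), and 111 ± 32.0 at term and 208 ± 52.3 at E18.5 in (+/+) lungs (adjusted p = 0.0466). Itga3, a laminin receptor of epithelium, fell by 0.88 in (-/-) and by 0.75 in (+/+) lungs on the log2 scale (adjusted p = 0.00673 and 0.0487). Itgav, the subunit shared by receptors of fibronectin, vitronectin and latent TGF-β, rose to 705 ± 96.8 at term, against 296 ± 29.2 at E18.5, in (-/-) lungs (adjusted p = 0.00132). Itga6 rose by 0.91 in (+/+) lungs (adjusted p = 0.0442), and the collagen receptor Ddr2 fell by 0.89 in (-/-) lungs (adjusted p = 0.0118). Itgav, Itga6 and Ddr2 did not pass in the other genotype. Their log2 fold changes there were 0.81 for Itgav and -0.87 for Ddr2 in (+/+) lungs and 0.59 for Itga6 in (-/-) lungs. In (+/+) lungs 0 of the 9 receptors passed in either direction when arrays were set to a common median, with no filter, or without array K, L, N or O or the 4 arrays of high heart marker signal, while in (-/-) lungs at least 2 fell under each alternative. Whether a change past the test in 1 genotype differed from that in the other was asked in the fit of all groups. In that fit 0 probe sets of the lists passed by limma and 2, both matricellular, had an unadjusted p under 0.05. Of all 6458 probe sets 0% passed in it and 1.47% had an unadjusted p under 0.05. A difference was therefore not shown, and this fit cannot exclude one.

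Of the proteoglycan lists, glypican 3 (Gpc3) rose in (+/+) lungs to 895 ± 108 at term, against 499 ± 105 at E18.5 (adjusted p = 0.0401 by limma). Col18a1, the heparan sulfate collagen of basement membranes, fell in (-/-) lungs to 181 ± 31.9 at term, against 409 ± 118 at E18.5 (adjusted p = 0.00823). Osteoglycin (Ogn), a small leucine-rich proteoglycan, rose in (-/-) lungs to 337 ± 52.8, against 212 ± 33.1 (adjusted p = 0.0375). Gpc3, Col18a1 and Ogn did not pass in the other genotype. Their log2 fold changes there were 0.43 for Gpc3 in (-/-) lungs and -0.16 for Col18a1 and 0.26 for Ogn in (+/+) lungs. Chpf, which helps to build chondroitin sulfate chains like those of versican, rose in (+/+) lungs to 118 ± 51.5, against 32.1 ± 4.49 (adjusted p = 0.00408). In (-/-) lungs it was 115 ± 15.2 at term and 64.2 ± 42.7 at E18.5 and did not pass (adjusted p = 0.086). The call of Gpc3 was lost with arrays set to a common median, with no filter, and without array I, J, M, N or O or the 4 arrays of high heart marker signal. That of Ogn was lost with quantile normalization, with no filter, with all arrays in 1 fit, and without array C, D, E, F or G or those 4, and that of Chpf without those 4. No probe set of the hyaluronan list passed, with 3 tested in (-/-) and 2 in (+/+) lungs, where 26.7% and 18.6% of all probe sets passed. All of those tested lay below 0, as did 53.7% and 52.7% of all probe sets. None had an unadjusted p under 0.05, which 40.4% and 34.4% of all probe sets had.

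**Figure D5:**
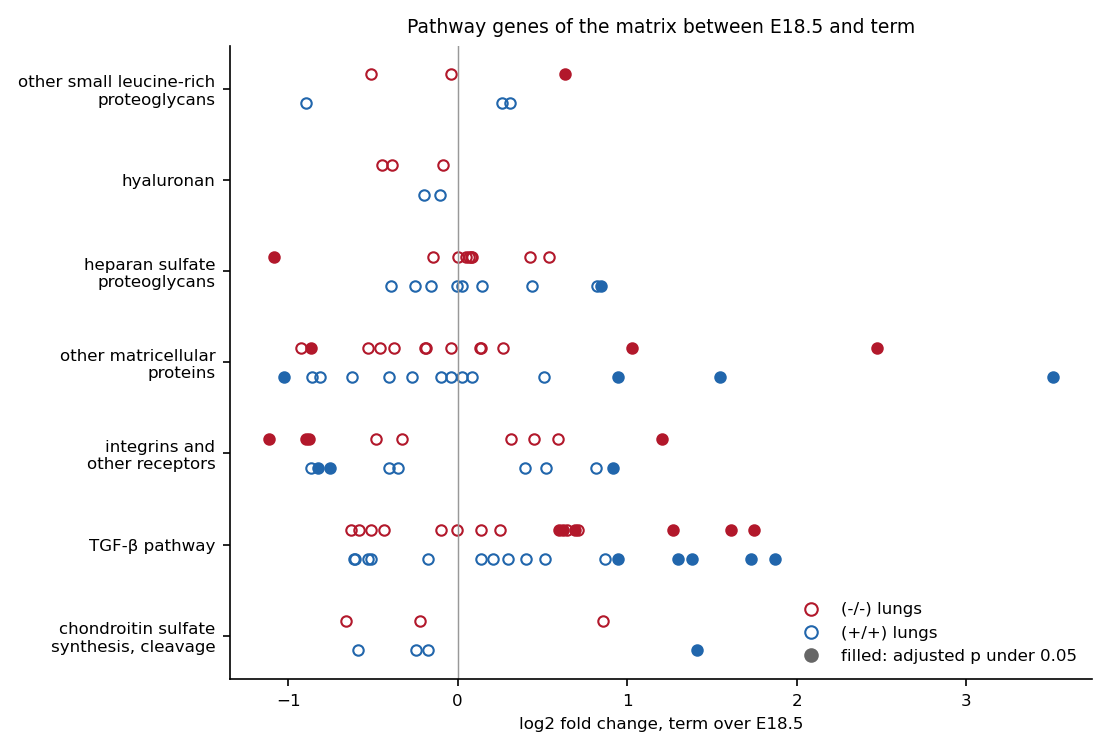
Log2 fold change, term over E18.5, of each gene of the 7 lists that passed the filter, in (-/-) lungs (upper row of each list) and (+/+) lungs (lower row). Filled points passed the test at an adjusted p under 0.05, and those of the TGF-β pathway all lie above 0 (6 in (-/-) and 5 in (+/+) lungs).

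The probe sets whose log2 signals were most like those of versican over the 16 arrays, among 5865 with 1 symbol, were Hnrnpul2 (r = 0.74), Zc3h15 (0.74), Mad2l1 (0.73), Sox11 (0.73) and Mrpl13 (0.71). Relative to the group means these values fell to between 0.39 and 0.65. For Tgfbi they were Cdc5l (0.88), Acp1 (0.88), Car4 (0.87), Mxd3 (0.87) and Psat1 (0.87), and between 0.52 and 0.71 relative to the group means. None of the members was among them. These ranks are descriptions, since the 16 arrays include the E18.5 arrays whose genotype difference chose both genes. Versican and big-h3 had r = 0.34 with each other over the 16 arrays and -0.08 relative to the group means.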

How the data were processed

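RNA of whole lungs was measured on 16 arrays, in the groups that the labels give. Per the labels and the study's methods, the authors extracted total RNA, labelled it, hybridized each sample to 1 array and deposited MAS 5.0 signal intensities on a linear scale, scaled to a common trimmed mean. Array detection calls were not used. No batch or sex label is given, and where nothing says which lungs shared a litter, p-values measure only the spread between these samples.

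Signals were tested as log2(signal + 16) with limma 3.58.1 in R 4.3.3 (lmFit, eBayes with an intensity trend, 2-sided), adjusted by Benjamini-Hochberg over all probe sets whose median in at least 1 group exceeded a filter level (53.4 for genotype at E18.5, 47.7 at term, 51.3 for all arrays, 52.5 for time in (+/+) and 50.1 in (-/-) lungs). An adjusted p under 0.05 was called. Single probe sets were also given exact permutation tests in scipy 1.17.1, and 95% intervals come from limma. The members and lists were chosen with earlier results of these data known. Gene names are from the platform annotation, in which 10833 of 12488 probe sets have 1 symbol, 396 several and 1193 none (66 are controls). The promoter table holds Vcan, Tgfbi, Bgn, Sparc, Tnc, Postn and Spp1. The text names T1α, every member probe set, per list and comparison up to 4 called genes of lowest p or else the 2 largest differences, and the 5 probe sets most like Vcan and Tgfbi. Ski in (-/-) and Smad6 and Chpf outside that rule were named after their values were seen. Values of Ccn3, Smoc1, Fbln1, Itgav, Itga6, Ddr2, Gpc3, Col18a1 and Ogn in the genotype where they did not pass were added likewise. For a gene with several probe sets, lists used the set of highest mean signal. Fits were tested on simulated data. Alternatives were quantile normalization, median centering, other constants and filters, 1 fit for all arrays, array quality weights, no trend, leaving out arrays and the methods' t-test. The arrays of highest heart marker signal were chosen for leaving out after seeing the data.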

Additional observations from a re-analysis of the deposited data

How the results depend on the processing

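No paired analysis was possible because the replicate letters are not shared between groups. Between genotypes at E18.5, 2 probe sets were called, against 1 with no constant added, 1 with a stricter filter on low signals, 0 by the methods' t-test after adjustment, 0 without the 4 arrays of highest heart marker signal and 0 (without L) to 3 (without K) with each array left out. Over time in (+/+) lungs 1140 were called, against 1939 with array quality weights, 493 without those 4 arrays and 333 (without N) to 1268 (without K), with 583 without O. In (-/-) lungs 1655 were called, against 768 without those 4 arrays and 897 (without F) to 1772 (without B), with 1102 without G. Centering each array on its median gave 682 higher and 229 lower in (+/+) and 1033 higher and 517 lower in (-/-) lungs, against 649 and 491, and 852 and 803. By the methods' t-test before adjustment 341 probe sets (208 higher, 133 lower) passed at E18.5 and 79 (35 higher, 44 lower) at term.

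At term and over time, the member values that changed sign had not passed the test, and none of those alternatives passed it. At E18.5, where no test is given, Sparc reached 0.171 (without B) and kept its sign in 16 of 20 alternatives, Fn1 reached 0.046 (without I; 17 of 20) and the Bgn set 96049_at reached -0.025 (without J; 19 of 20). At term, without the 4 arrays, the genotype difference was 0.045 for the Bgn set 162347_f_at and 0.047 for Tgfbi, and with array quality weights 0.022 for the Bgn set 96049_at and 0.198 for Sparc. With each array left out these ran from -0.209 to 0.112, -0.248 to 0.115, -0.270 to 0.126 and -0.516 to 0.313 in that order, and Postn from -0.708 to 0.040. Over time in (+/+) lungs, Dcn was -0.004 and Lum -0.081 without the 4 arrays, Postn was -0.028 with array quality weights, and leaving out each array gave -0.105 to 0.859 for Dcn, -0.253 to 0.659 for Lum and -0.117 to 0.477 for Postn. In (-/-) lungs Dcn was -0.401 without the 4 arrays and -0.635 to 0.466 with each array left out, and Postn -0.124 to 0.624. The cause was not tested. Probe sets whose medians lie under the filter level, such as Vcan at term, have signals too low to order.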

Other observations

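Other genes followed single members from array to array, and they were chosen after their values were seen. Over the 16 arrays, which share genotype, time and scaling, the log2 signal of Sparc had r = 0.95 with Sra1 and 0.93 with Rbbp9, and 0.97 and 0.93 relative to the group means. Bgn had r = 0.84 with Col1a1, the main fibrillar collagen gene, and 0.81 with Eln, the gene of elastin, and Tnc had r = 0.80 with Mki67, a gene of dividing cells. Decorin had r = 0.86 with Perp, and relative to the group means 0.89. Sparc and Fn1 had r = -0.16 over the arrays and -0.72 relative to the group means, and Bgn and Fn1 0.19 and -0.59.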
